A study of Homo sapiens with 4 samples.

Results

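A set of 10 genes for CXC chemokines and their receptors was followed through a knockdown of FOXM1 in Myla cells: the ligands CXCL8, CXCL9, CXCL10, CXCL11, CXCL13 and CXCL16 and the receptors CXCR3, CXCR4, CXCR5 and CXCR6. These 10 genes, of 58735 in the deposited table, were taken by symbol, and the family was picked out because CXCL10 was lower after the knockdown, so that difference is given as a description and no p is given for a member. Myla is a cell line of mycosis fungoides, a T cell lymphoma of the skin. Every culture received lentivirus, 10 uL of virus medium in 1 mL. The 2 shControl libraries (genotype labelled WT) carried a scrambled hairpin, and the 2 shFOXM1 libraries (labelled FOXM1 knockdown) a short hairpin RNA against FOXM1, a forkhead factor of dividing cells. Medium was changed at 24 h and RNA taken after a further 72 h. Whether both shFOXM1 libraries carried the same hairpin, and whether cultures were transduced separately, is not stated; p-values therefore reflect the spread among these libraries alone, which could be technical. Values given in pairs are in the order library 1, library 2.

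CXC chemokines are small secreted proteins named for a pair of conserved cysteines with a single residue between them, and they steer leukocytes through receptors that couple to inhibitory G proteins. CXCL9, CXCL10 and CXCL11 are induced by interferons and attract activated T cells through CXCR3. CXCL8 attracts neutrophils through CXCR1 and CXCR2, CXCL13 guides cells to B cell follicles through CXCR5, CXCL16 is the membrane-bound ligand of CXCR6, and CXCR4 is the receptor of CXCL12. In inflamed skin CXCL10 is made by keratinocytes and myeloid cells as well as by T cells.

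The promoters of CXCL10 and CXCR4, the members that reached the level tested, are shown beside that of CXCL9, a neighbour of CXCL10 with few reads. Each sequence is the 250 bases before the RefSeq start, 5′ to 3′ on the gene's strand, which is minus for all 3 (GRCh38.p14). Positions are chr4:76023498-76023747 for CXCL10, chr4:76007510-76007759 for CXCL9 and chr2:136118150-136118399 for CXCR4. Capitals mark matches to the motifs searched on both strands.
CXCL10: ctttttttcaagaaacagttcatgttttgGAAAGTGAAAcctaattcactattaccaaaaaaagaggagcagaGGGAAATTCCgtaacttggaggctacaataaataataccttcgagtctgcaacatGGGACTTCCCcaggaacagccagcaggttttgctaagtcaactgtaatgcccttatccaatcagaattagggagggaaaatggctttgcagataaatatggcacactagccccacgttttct
CXCL9: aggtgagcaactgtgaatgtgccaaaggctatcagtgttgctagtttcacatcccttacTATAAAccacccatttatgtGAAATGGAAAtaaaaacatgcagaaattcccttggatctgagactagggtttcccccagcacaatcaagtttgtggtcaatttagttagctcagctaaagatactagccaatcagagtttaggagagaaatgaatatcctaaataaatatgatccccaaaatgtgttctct
CXCR4: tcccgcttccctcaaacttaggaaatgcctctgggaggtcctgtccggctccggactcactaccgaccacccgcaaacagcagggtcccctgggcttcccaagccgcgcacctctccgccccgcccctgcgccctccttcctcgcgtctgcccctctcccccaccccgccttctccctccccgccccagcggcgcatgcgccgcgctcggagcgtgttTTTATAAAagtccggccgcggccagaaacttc
In CXCL10 the capitals are, in order, an interferon-stimulated response element core (GAAA, any 2 bases, then GAAA again), 221 to 212 bases before the start, and 2 matches to the kappa-B consensus, bound by NF-kB, at 177 to 168 and 122 to 113 bases before it. In CXCL9 they are a match to the letters of a TATA box (TATAAA), 191 to 186 bases before the start, and another interferon-stimulated response element core at 171 to 162. In CXCR4 they are overlapping TATAAA matches on both strands, 32 to 25 bases before the start. Over 35114 promoter windows of this length, 3.02% held that interferon element, 9.96% the kappa-B consensus and 10.7% TATAAA. The forkhead core TAAACA (in 11.0% of all windows), the cell cycle homology region as TTTGAA (13.3%) or TTCGAA (1.19%), and the STAT site TTCNNNGAA (6.57%) had no match in these 3 windows. RefSeq gives CXCR4 3 windows, of which the first is shown, and the second held TTTGAA 134 to 129 bases before its start. Only the letters given were searched, so other forms of these motifs could be present. These letters are descriptions of the windows, not evidence of binding.

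FOXM1 itself, the target of the hairpin, was at 26.5 and 27.6 FPKM with the scrambled hairpin, against 9.27 and 5.59 FPKM with the FOXM1 hairpin. FPKM is the number of fragments scaled by gene length and by library size, so levels can be set side by side between genes. Both shFOXM1 libraries were below both controls, and shFOXM1 2 was the lower by a ratio of 1.66. Libraries held 14147084 to 15017728 reads, recovered as whole numbers from the FPKM. A gene was tested where 2 or more libraries reached 1 FPKM, which held for 12033, and limma on log2(FPKM + 1) called 0 of them (0.0%) at a Benjamini-Hochberg adjusted p under 0.05. FOXM1 itself was tested and not called, so 0 calls need not mean no change. There were 2143 genes (17.8%) at an unadjusted p under 0.05, 1061 of them higher (8.82%) and 1082 lower (8.99%), and voom on the recovered reads also called 0. The shFOXM1 libraries lay wholly above or below the controls for 53.2% of genes tested, 27.3% above and 25.9% below. The T cell markers CD2, CD3D, CD3G, CD28 and TRAC were measured, while CD3E, CD4, CD5, CD7 and LCK stayed under 1 FPKM in every library, CD4 with no read.

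Of the 10 members, 2 reached the level tested, CXCL10 and CXCR4. The other 8 stayed under 1 FPKM in every library, at most 0.435 FPKM and 12 reads in any library, and 1 of them, CXCR5, had no read. Both tested members were lower in shFOXM1 with groups that did not overlap, against 25.9% of all genes tested. Because the members were chosen on this contrast, nothing is read from that count.

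**Figure D1:**
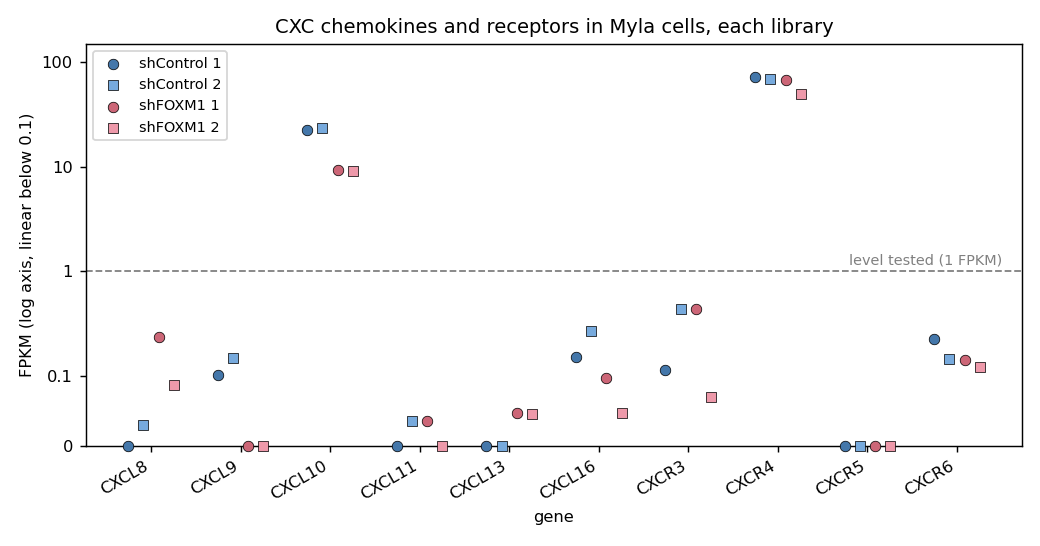
FPKM of each member (y axis, logarithmic above 0.1 and linear below) in each of the 4 libraries (blue, shControl; red, shFOXM1; circle, library 1; square, library 2). CXCL10 and CXCR4 lie above the dashed line at 1 FPKM and the other 8 genes lie below it in every library.

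The controls held CXCL10 at 22.8 and 23.6 FPKM, on 380 and 410 reads. In shFOXM1 1 and 2 it was at 9.36 and 9.10 FPKM, on 163 reads in each. The libraries of a group were close to each other, with a ratio of 1.04 within shControl and 1.03 within shFOXM1, and the groups were far apart. Group means were 23.2 ± 0.611 and 9.23 ± 0.190 FPKM (mean ± SD, n = 2 each), so shFOXM1 stood at 39.8% of the control level. Over the 4 pairings of a knockdown library with a control library the ratio ran from 0.385 to 0.411. On the log2(FPKM + 1) scale, which understates changes of low genes, the difference was -1.24 (SE 0.107). Of all genes tested, 0.291% had a lower value, which placed CXCL10 at rank 36 from the bottom, while the median over all genes tested was 0.00 on the same scale. In these bulk libraries fewer cells making CXCL10 and less CXCL10 RNA per cell cannot be told apart.

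FOXM1 stood at 34.2 and 20.6% of its control mean in shFOXM1 1 and 2, and CXCL10 at 40.4 and 39.2%. Both genes were the lower in shFOXM1 2, FOXM1 by a ratio of 1.66 and CXCL10 by 1.03, and 2 libraries do not allow a relation between them to be tested.

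**Figure D2:**
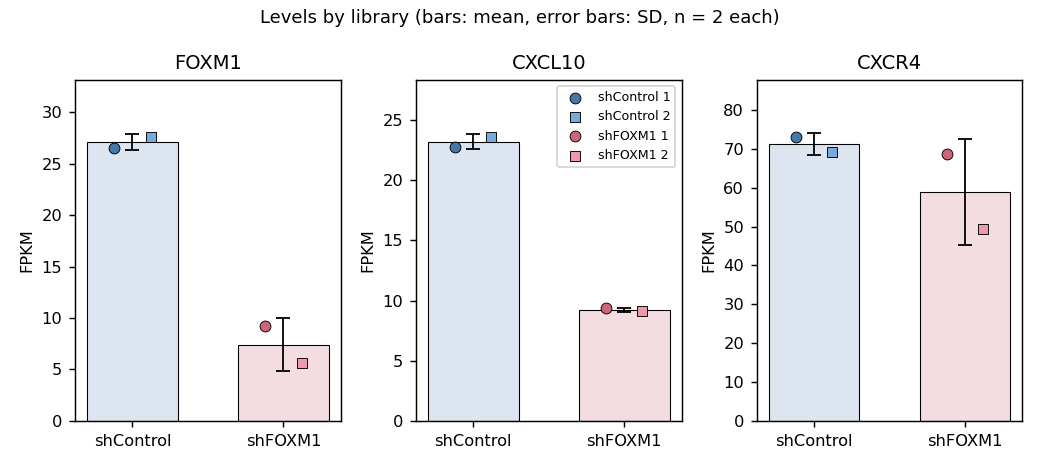
FPKM (y axes, from 0) of FOXM1, CXCL10 and CXCR4 in shControl and shFOXM1. Bars are means, error bars SD (n = 2 each) and points single libraries; the knockdown libraries sit together for CXCL10, at 9.36 and 9.10 FPKM, and apart for CXCR4, at 68.6 and 49.3 FPKM.

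The gene for CXCL10 (ENSG00000169245) spans 76021117 to 76023497 of chromosome 4 (GRCh38, minus strand), with CXCL9 and CXCL11 on either side on the same strand. The start of CXCL9 lies 16.0 kb and that of CXCL11 17.9 kb from the start of CXCL10. All 3 ligands share the receptor CXCR3, and the level of CXCL10 was far above those of CXCL9 and CXCL11. CXCL9 had 4 and 6 reads in shControl 1 and 2 (0.103 and 0.148 FPKM) and 0 in both shFOXM1 libraries. Per read total, the exact 95% counting interval of the ratio of shFOXM1 to shControl ran from 0 to 0.435, which covers counting error only. CXCL11 had 1 read in shControl 2, 1 in shFOXM1 1 and none in the others, too few to compare. ART3, which spans CXCL10 on the opposite strand, had 1 read over all libraries, and the more distant SDAD1 was at 9.71 and 10.5 FPKM with the scrambled hairpin, against 9.77 and 9.91 FPKM with the FOXM1 hairpin. Within this stretch CXCL10 and CXCL9 were lower in shFOXM1, and SDAD1 had overlapping groups.

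**Figure D3:**
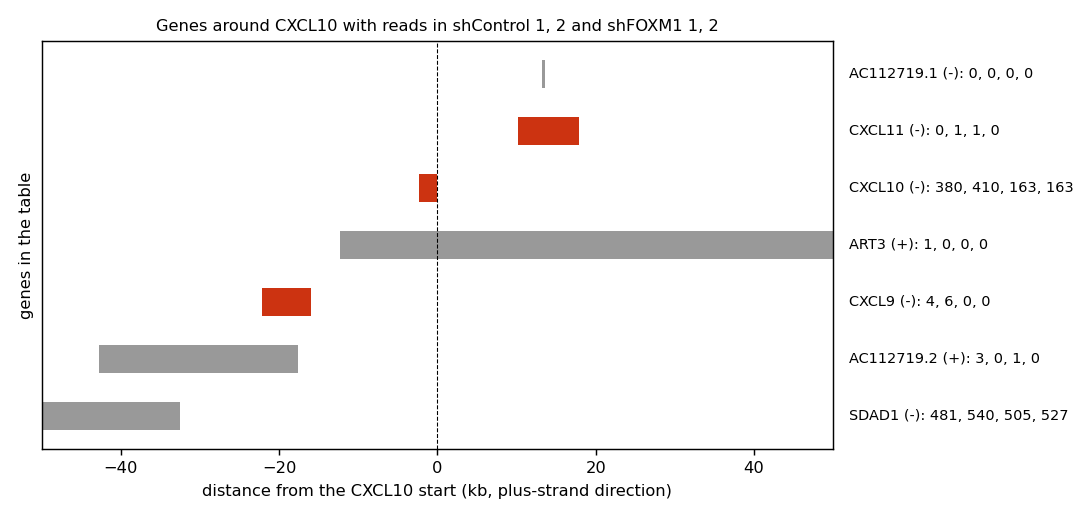
Genes of the table within 50 kb of the CXCL10 start (x axis, distance in kb), with strand and reads in shControl 1, shControl 2, shFOXM1 1 and shFOXM1 2 at the right. CXCL10 has 380, 410, 163 and 163 reads, and its neighbours CXCL9 and CXCL11 at most 6.

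The promoter windows of these neighbours differed in the motifs found. CXCL10 held the interferon-stimulated response element core and 2 kappa-B matches. CXCL9 held the interferon element and a TATAAA match, with no kappa-B match. CXCL11 held 1 kappa-B match, 1 STAT site and a TATA box 42 to 37 bases before the start. The CXCL11 window was taken from a RefSeq start that lies inside the gene's deposited span. Of the 10 members, 9 had a promoter in the RefSeq table, and among these only CXCL10 had both the interferon element and a kappa-B match.

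The other ligands were near 0. CXCL8, on chromosome 4 as well, had 0 and 1 reads in the controls and 8 and 3 in the knockdown, or at most 0.238 FPKM. Per read total it was higher in shFOXM1 by a ratio of 10.7, with an exact 95% counting interval from 1.56 to 461. CXCL16, on chromosome 17, had 6 and 11 reads in the controls and 4 and 2 in the knockdown, a ratio of shFOXM1 to shControl of 0.344 with an interval from 0.111 to 0.914. Both intervals cover counting error only, not the spread between cultures. The end of CXCL16 overlaps MED11 on the other strand, at 8.58 to 11.0 FPKM, so without a stated strand setting the source of its few reads is uncertain. CXCL13, the B cell attractant, had no read in shControl and 1 in each shFOXM1 library.

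Among the receptors CXCR4 was the abundant member. It was at 73.1 and 69.1 FPKM with the scrambled hairpin, against 68.6 and 49.3 FPKM with the FOXM1 hairpin, on 2308, 2268, 2257 and 1671 reads. The library shFOXM1 2 was low and the other 3 were close together. Means were 71.1 ± 2.83 and 58.9 ± 13.6 FPKM (SD, n = 2 each), so the groups differed by less than 1 SD of shFOXM1. The log2(FPKM + 1) difference was -0.29 (SE 0.18), and 18.0% of genes tested had a lower value. That difference rested on shFOXM1 2: without it the value was -0.05, and without shFOXM1 1 it was -0.52. The gene (ENSG00000121966) spans 136114349 to 136118165 of chromosome 2 (GRCh38, minus strand), and the promoter window shown overlaps its first bases because the RefSeq start lies just inside it.

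**Figure D4:**
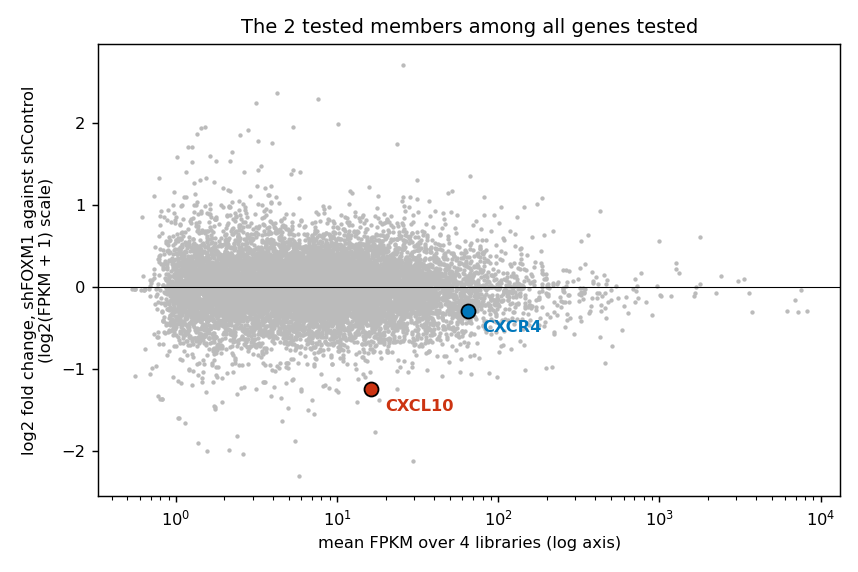
Log2 fold change of shFOXM1 against shControl on the log2(FPKM + 1) scale (y axis) by mean FPKM over 4 libraries (x axis, logarithmic) for 12033 genes tested. CXCL10 lies at -1.24, near the lower edge of the genes of its level, and CXCR4 at -0.29, within their bulk.

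The partners of CXCL10 and CXCR4 within the family were scarce. CXCR3, the receptor of CXCL10, had 3 and 12 reads in the controls and 12 and 2 in the knockdown, between 0.0703 and 0.435 FPKM, with overlapping groups. Its ratio of shFOXM1 to shControl was 0.909, with a counting interval from 0.407 to 2.02. CXCR6, the receptor of CXCL16, had 12 and 8 reads in the controls and 8 and 7 in the knockdown, a ratio of 0.731 with an interval from 0.348 to 1.501, and lies within the span of FYCO1 on the other strand, which was at 4.12 to 5.48 FPKM. CXCR5 was listed at 0 in all libraries, where 3 reads would be 0.0444 to 0.0477 FPKM. CXCL12, the ligand of CXCR4, was also listed at 0 in all libraries. A gene of general use, the GTPase CDC42, was at 0.294 to 0.716 FPKM, so a low value in this table need not mean a silent gene.

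By level per length in shControl the order was CXCR4, CXCL10, CXCR3, CXCL16, CXCR6, CXCL9, CXCL11 and CXCL8, with CXCL13 and CXCR5 at 0. CXCR4 was 3.07 times CXCL10 by mean FPKM, and 6.39 times in shFOXM1. Among genes with a read, CXCR4 stood at percentiles 97.7 and 97.5 in shControl 1 and 2 and CXCL10 at percentiles 89.8 and 90.2. From CXCR3 to CXCL9, and between CXCL11 and CXCL8, the library values of neighbours in this order overlapped, so their order is not established.

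The genes upstream of CXCL10 were taken from lists of the pathway. Of 17 genes of the interferon input, 10 were tested, 0 passed, and at an unadjusted p under 0.05 limma's counts were 1 higher and 0 lower. IFNG, interferon-gamma itself, and TBX21, which drives it in T cells, were listed at 0. By sign 9 were higher and 1 lower, with 5 groups not overlapping (50%, against 53.2% of all genes tested) and a median log2 fold change of 0.18, against 0.00 over all genes tested. SOCS3, a feedback inhibitor of JAK-STAT signalling, was at 12.5 and 16.4 FPKM with the scrambled hairpin, against 21.9 and 31.2 FPKM with the FOXM1 hairpin. It and its relative SOCS1 are counted among the 9 higher genes, so the counts give no direction of interferon signalling. IFNGR1, a chain of the interferon-gamma receptor, was at 4.43 and 4.76 FPKM against 6.62 and 5.11 FPKM. IFNAR1, of the type I receptor, was at 14.1 and 14.4 FPKM against 16.2 and 18.2 FPKM. The other chains of these receptors differed from these: IFNGR2 had overlapping groups, at 12.6 and 14.4 FPKM against 13.5 and 19.8 FPKM, and IFNAR2, under the level tested, was lower, at 0.657 and 0.441 FPKM against 0.410 and 0.284 FPKM.

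Interferon-inducible genes other than the chemokines leaned the way of CXCL10. Of 17 such genes 7 were tested, 1 higher and 6 lower by sign, with a median log2 fold change of -0.43. Groups did not overlap for 1 higher and 5 lower genes, 85.7% of the 7 tested against 53.2% of all genes tested, and 0 passed limma's adjusted threshold. The wholly higher gene was TAP1, at 78.2 and 90.0 FPKM with the scrambled hairpin, against 114 and 105 FPKM with the FOXM1 hairpin. At an unadjusted p under 0.05 the counts were 1 higher and 2 lower. IFIT3, an antiviral interferon-induced protein, was at 4.16 and 5.83 FPKM with the scrambled hairpin, against 2.48 and 1.72 FPKM with the FOXM1 hairpin. Its relative IFIT2 was at 3.18 and 4.23 FPKM against 1.71 and 1.17 FPKM. GBP4, a guanylate-binding protein, was at 1.52 and 2.32 FPKM against 1.10 and 1.11 FPKM. For each of these genes the controls differed more from each other than they did for CXCL10. The list was chosen with earlier results of these data known, in which IFIT2 was already low.

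The NF-kB input was fully measured, with 13 of 13 genes tested, 11 higher and 2 lower by sign and a median log2 fold change of 0.14. The list includes the NF-kB inhibitors NFKBIA (0.14) and TNFAIP3 (0.51), both counted as higher, so its counts give no direction of NF-kB activity. Here 7 groups were wholly higher and 1 wholly lower, 61.5% against 53.2% of all genes, and limma called 0. At an unadjusted p under 0.05 the counts were 5 higher and 0 lower. LTA, lymphotoxin alpha, was at 49.7 and 63.1 FPKM with the scrambled hairpin, against 128 and 85.5 FPKM with the FOXM1 hairpin. TNF was at 6.18 and 9.06 FPKM against 14.3 and 12.7 FPKM, and NFKB2, an NF-kB subunit, at 162 and 173 FPKM against 235 and 311 FPKM. NFKB1, the subunit whose groups lay wholly lower, was at 24.0 and 26.6 FPKM against 23.8 and 14.3 FPKM, close to the controls in shFOXM1 1 and low in shFOXM1 2.

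**Figure D5:**
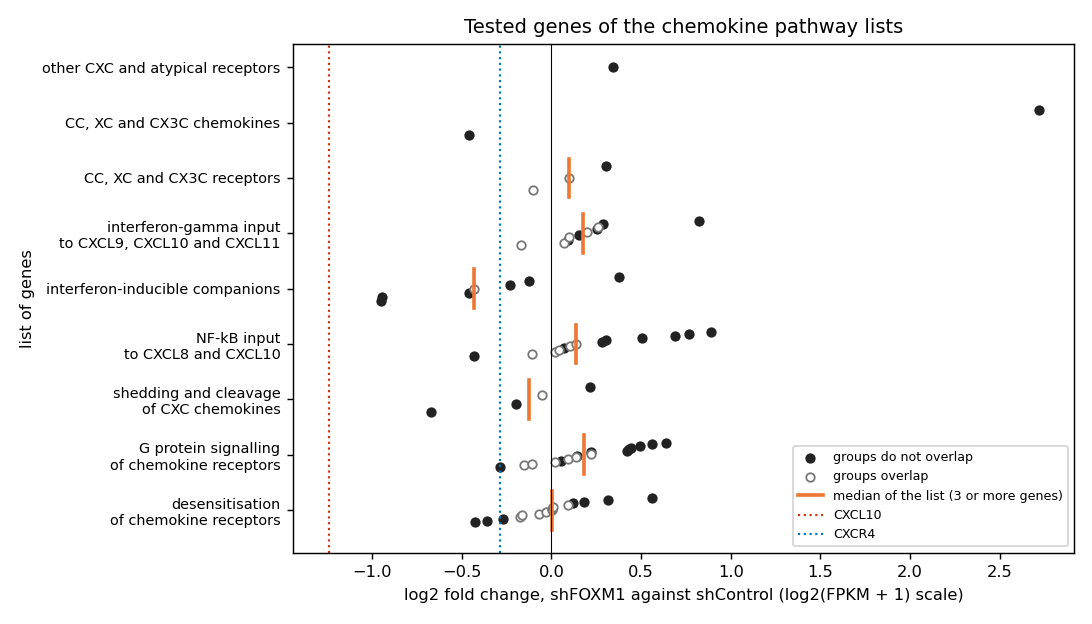
Log2 fold change on the log2(FPKM + 1) scale (x axis) of each tested gene in 9 lists (rows; filled, groups do not overlap; open, groups overlap; orange line, median of lists with 3 or more genes). The interferon-inducible companions lie mostly left of 0, with a median of -0.43. On this scale, which understates changes of low genes, none of the genes lies as low as the dotted line of CXCL10 at -1.24. By mean FPKM, IFIT2 stood at 38.9% and IFIT3 at 42.0% of the control level, against 39.8% for CXCL10.

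The rest of the chemokine system was sparse on the ligand side. Of 11 other CXC chemokines 0 reached the level tested and 7 had no read. Among 7 other CXC and atypical receptors 1 was tested: ACKR3, the scavenging receptor that shares CXCL12 with CXCR4, was at 9.36 and 9.85 FPKM with the scrambled hairpin, against 10.3 and 15.1 FPKM with the FOXM1 hairpin. As for CXCR4, shFOXM1 2 was the library that stood apart, here high. Of 25 CC, XC and CX3C chemokines 2 were tested. CCL5, a T cell chemokine, was at 7.50 and 8.70 FPKM against 6.70 and 4.64 FPKM, and CCL22 at 3.34 and 4.397 FPKM against 11.0 and 83.9 FPKM. Of 12 receptors of those families 3 were tested, CCR4, CCR7 and CCR10, with a median of 0.10, and CCR10 was the 1 whose groups did not overlap, at 2.37 and 2.77 FPKM against 3.12 and 3.71 FPKM. In these 3 lists 0 genes passed limma's adjusted threshold, and 1 (CCL22) was at an unadjusted p under 0.05.

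Enzymes that cleave or shed CXC chemokines had 4 of 6 genes tested, 1 higher and 3 lower by sign, a median of -0.12 and 0 past limma's test, adjusted or at an unadjusted p under 0.05. DPP4, the surface peptidase that truncates CXCL10, was at 28.2 and 27.1 FPKM with the scrambled hairpin, against 24.7 and 11.6 FPKM with the FOXM1 hairpin. ADAM10, which sheds CXCL16, was at 6.51 and 6.65 FPKM against 6.44 and 4.86 FPKM, and FURIN, a proprotein convertase, at 27.3 and 30.9 FPKM against 34.3 and 33.2 FPKM. DPP4 and ADAM10, like CXCR4, were lowest in shFOXM1 2 and near the controls in shFOXM1 1.

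Signalling genes downstream of the receptors were mostly expressed. Of 19 genes that carry the G protein signal, 16 were tested, 13 higher and 3 lower by sign, with a median of 0.18. Groups did not overlap for 9 higher and 1 lower gene, 62.5% against 53.2% of all genes, and limma called 0. At an unadjusted p under 0.05 the counts were 6 higher and 0 lower. PLCB2, a phospholipase C of leukocytes, was at 16.1 and 15.1 FPKM with the scrambled hairpin, against 23.1 and 26.8 FPKM with the FOXM1 hairpin. GNG2, a G protein gamma subunit, was at 14.5 and 11.5 FPKM against 18.9 and 20.1 FPKM, and PLCB3, a related phospholipase C, at 9.62 and 12.02 FPKM against 16.5 and 14.7 FPKM. These 3 genes stood higher in both knockdown libraries while CXCR4 did not.

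The list for desensitisation of chemokine receptors, which also holds the CXCR4 partner CD164, had 15 of 16 genes tested. Of these 8 were higher and 7 lower by sign, with a median of 0.00. Groups did not overlap for 7 of them, 46.7% against 53.2% of all genes, and limma called 0. At an unadjusted p under 0.05 the counts were 1 higher and 1 lower. RGS1, which shortens G protein signals in lymphocytes, was at 22.5 and 20.1 FPKM with the scrambled hairpin, against 33.3 and 30.5 FPKM with the FOXM1 hairpin. GRK3, a kinase that phosphorylates active receptors, was at 11.7 and 10.8 FPKM against 8.13 and 8.14 FPKM, and CD164, a sialomucin that associates with CXCR4, at 10.8 and 11.1 FPKM against 10.6 and 6.48 FPKM. RGS1 and GRK3 thus stood on opposite sides of the controls in both knockdown libraries, at log2 values of 0.56 (SE 0.12) and -0.43 (SE 0.11).

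Over the 4 libraries, the genes whose centred log2(FPKM + 1) values lay closest to those of CXCL10 were IMPA2, an inositol monophosphatase, at a root mean square distance of 0.0667, SLFN13, of the Schlafen family, at 0.0734, RTN4RL2, a Nogo receptor relative, at 0.0836, and SNHG25, a small nucleolar RNA host gene, at 0.0870. A small nucleolar RNA gene resting on 4 reads in all was the other of the 5 closest. IMPA2 was at 7.53 and 7.71 FPKM with the scrambled hairpin, against 2.90 and 3.02 FPKM with the FOXM1 hairpin, and SLFN13 at 5.53 and 5.01 FPKM against 1.85 and 1.76 FPKM. With 4 libraries this likeness describes a shared step between the groups.

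Markers of other cell types were also read, some of them near 0 and some not. Of 10 monocyte and macrophage markers 9 stayed under 1 FPKM in every library, 3 with no read (CD163, S100A8 and S100A9), and CD14 was at most 0.0374 FPKM. Their summed level was 9.18 to 13.0 FPKM in shControl and 8.55 to 13.6 FPKM in shFOXM1, nearly all of it CSF1R. Of 10 keratinocyte and epithelial markers 4 had no read, among them KRT1 and KRT14, and 4 were expressed. SFN was at 40.1 to 69.5 FPKM over the libraries, KRT10 at 8.18 to 11.1, TP63 at 7.30 to 9.59 and CDH1 at 2.37 to 8.34 FPKM, and the summed level was 67.9 to 70.2 and 66.8 to 90.3 FPKM. Fibroblast and endothelial markers summed to 25.7 to 27.3 and 20.5 to 48.6 FPKM, mostly COL3A1, with COL1A1 at 2.50 and 2.75 FPKM against 3.23 and 4.48 FPKM and with DCN, LUM and CDH5 at no read. B cell markers summed to 76.1 to 79.7 and 77.9 to 81.7 FPKM, with MS4A1 at no read. That sum was carried by MZB1, at 48.2 and 46.2 FPKM against 43.8 and 41.6 FPKM, and BLK, at 29.3 and 28.0 FPKM against 33.5 and 32.0 FPKM, and CD79A reached 7.38 FPKM in shFOXM1 2. The summed levels of the groups overlapped in each list. MZB1, BLK and COL1A1 did not overlap, nor did the T cell markers CD3G and CD28, both lower in shFOXM1. Groups did not overlap for 53.2% of all genes tested, so nothing is read from these markers. The part of other cells in the CXCL10 value was not tested.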

How the data were processed

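Messenger RNA of 4 Myla libraries was measured. The authors deposited 1 table of FPKM for 58735 genes with the gene lengths used, per the file headers. Which aligner and counter made it, and with what strand setting, is not given in the sources used here. Mouse builds (GRCm38, mm10) stand in the submitters' processing notes, whereas all 58735 genes carry the start, end and strand of human GENCODE 29 (GRCh38). Columns named sh0 were taken as shControl and sh1 and sh2 as shFOXM1, and 0 columns belonged to other samples. Multiplied by gene length, 100% of FPKM values came out as whole reads (within 0.001 read).

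Values were tested as log2(FPKM + 1) in limma 3.58.1 (R 4.3.3), with a trend, two-sided, over genes with at least 1 FPKM in 2 libraries. On simulated data both groups had the pooled spread of these libraries, and only genes with many reads were changed. The fit called 29 of 100 genes changed by 1 log2 unit, a rate that need not hold for genes with fewer reads. It called 76 of 100 genes changed by 2 log2 units, with 4 false calls. A lack of calls is therefore not evidence of no change. With 2 libraries against 2, precision rests on their spread and on the reads behind a gene. The members, the 10 pathway lists and the marker lists were chosen with earlier results of these data known. Named were all members, FOXM1, per list up to 3 tested genes without overlap and with the largest change, and the 5 genes most like CXCL10. CDC42, SDAD1, ART3, NFKB1, NFKBIA, TNFAIP3, TAP1, SOCS1, IFNGR2, IFNAR2 and single cell type markers were chosen after their values were seen. So were other genes named for being at or near 0 or for overlapping a member. Counting intervals are exact binomial at 95%. The alternatives tried were quantile normalization, pseudocounts of 0.1 and 0.01, testing every gene with a read, testing genes with a mean of 5 FPKM or more, scaling by recovered reads, fits without a trend or robust, voom on recovered reads, a replicate block and each library left out.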

Additional observations from a re-analysis of the deposited data

How the results depend on the processing

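CXCL10 stayed lower in shFOXM1 under all 14 alternatives. With both knockdown libraries far below both controls the sign could hardly turn, so nothing is read from it. The log2 value of CXCL10 ran from -1.33 to -1.23 over the 10 that kept every library. With single libraries left out it ran from -1.27 to -1.22. CXCR4 ran from -0.29 to -0.27 over the former and from -0.52 to -0.052 over the latter. Calls appeared on dropping either knockdown library, a fit in which the lone library is assumed to vary like the controls. Dropping libraries singly gave 0 to 1360 higher genes and 0 to 1744 lower genes, 0 to 2 members lower, and among the 71 tested genes of the pathway lists 0 to 13 higher and 0 to 12 lower. Nothing is read from the member count, because the members were chosen on this contrast. Nor is anything read from the other counts, because a lone library gives its group no spread of its own. The alternatives that kept every library called 0 genes in either direction. The median of all genes stayed within -0.01 to 0.02 in all alternatives. List medians turned sign without single libraries for the CC receptors (-0.16 to 0.21), the cleaving enzymes (-0.28 to 0.04) and the desensitisation list (-0.15 to 0.13). The median of the interferon-inducible list stayed between -0.66 and -0.17.

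Over genes, deviations from the group means of same-numbered libraries had a correlation of 0.0421 (2 pairs), and the labels do not say that numbers pair cultures. With the replicate block limma called 0 genes, and CXCL10 was at -1.24. Depth limits the 8 members under 1 FPKM, whose differences rest on 35 reads or fewer over all libraries.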
